A study of Mus musculus with 2 samples.

Results

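The immediate early genes Fos, Fosb, Fosl1, Fosl2, Jun, Junb, Egr1, Arc, Nr4a1 and Ier3 were examined across cerebellar tumors and the neural tissue around them. The 10 genes were taken by name, with earlier results of these data known, and not by a threshold on their levels. All 10 were among the 19465 genes that the probe panel measured in both sections. The study injected organoids of mouse mammary tumors stereotactically into the cerebellum of 5-month-old syngeneic B6 mice and profiled 2 untreated mice, with 1 formalin-fixed section of 5 µm per mouse. The organoids, named HP, carried the activating changes HER2 V777L and PIK3CA H1047R, switched on by a Cre-expressing adenovirus in the mammary gland, with the human HER2 transgene under an actin promoter behind a Lox-STOP-Lox element, and they were labeled with luciferase. The sample titles name the organoid HP-F1 for section 1 and HP-B6 for section 2, while genotype, tissue and treatment are labeled the same. Because the organoids were placed in the brain directly, the model holds no stage in the circulation, and there was no section without a tumor, so every comparison was between regions of the same section.

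Immediate early genes are transcribed within minutes of a stimulus, without new protein synthesis, when kinases of the MAPK pathways and calcium signals act on factors that already sit at their promoters, such as SRF with its ETS-domain partners and CREB. Proteins of the Fos and Jun families pair into the transcription factor AP-1, which acts on genes of proliferation, matrix breakdown and stress. In the brain the same genes are known as reporters of neuronal firing, and in tumors as readouts of growth factor and stress signals. The transcripts are short-lived, so their levels can also move with handling between death and fixation, and that interval is not given in the sources used here.

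The Visium CytAssist assay ligates pairs of probes on each transcript and captures them on an array of barcoded spots with 100 µm between centers, each of which can hold several cells. Section 1 held 3406 spots under tissue with 63986887 unique molecular identifiers (UMIs, 1 per captured probe molecule) and section 2 held 4017 spots with 71878333. Spots were divided by a rule on lesion and neural marker genes, none of them immediate early genes, into tumor (749 spots in section 1 and 901 in section 2), inner edge (116 and 191, the outermost 2 steps of the lesion), outer edge (122 and 184, the first 2 steps of tissue outside it) and neural tissue (2328 and 2717). Median UMIs per spot were 54769 and 40241 in tumor and 7484 and 9581 in neural tissue, so levels are given as UMIs of the gene per 1000000 UMIs (CPM) with TMM-scaled library sizes, from UMIs summed over all spots of a region. In such sums, fewer cells of a type and less RNA per cell cannot be told apart. The lesion of section 1 stood apart from that of section 2. All 6 epithelial markers together (Epcam and keratins among them) reached 37.1 CPM in the tumor of section 1 and 9240 CPM in section 2. In the neural tissue of section 1 they were at 19.9 CPM. The 7 matrix markers reached 62520 CPM and 3303 CPM in the tumors. The tumor of section 1 was thus a lesion rich in matrix transcripts in which epithelial markers were scarce. For that reason the levels of the 10 genes are given for each section separately. The tests below still took both lesions as the same region, tumor. The 3096 spot barcodes that the sections shared all named the same array position in both and stood for no shared cells.

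The stretches before the transcription start of Fos, Jun, Junb, Fosl2 and Nr4a1 are shown because these genes divided into patterns that the levels below describe. Jun, Junb and Fosl2 were higher in lesion and edge, Fos was not called between regions, and Nr4a1 was lowest in tumor without a call. Sequences are the 250 bases before the start in RefSeq's annotation of GRCm38.p6, the assembly of mm10, in the direction of transcription. Stretches of 7 of the 10 genes were searched, and those of Egr1, Fosl1 and Arc were not. The gene record of Nr4a1 begins further upstream, and the stretch shown for it lies within that record, before a start inside it. Capitals mark matches on either strand to TGACG, the core of the CRE to which CREB binds (CGTCA on the other strand), to TGACATCA, an AP-1 and CRE variant known from Jun, and to the TATA box TATAAA.
Fos (chr12:85473640-85473889, plus strand): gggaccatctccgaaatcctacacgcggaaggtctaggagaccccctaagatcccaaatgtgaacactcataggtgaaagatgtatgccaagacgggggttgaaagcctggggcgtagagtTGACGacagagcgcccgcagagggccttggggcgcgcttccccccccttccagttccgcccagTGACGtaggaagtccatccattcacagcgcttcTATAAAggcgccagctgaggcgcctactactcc
Jun (chr4:95052223-95052472, minus strand): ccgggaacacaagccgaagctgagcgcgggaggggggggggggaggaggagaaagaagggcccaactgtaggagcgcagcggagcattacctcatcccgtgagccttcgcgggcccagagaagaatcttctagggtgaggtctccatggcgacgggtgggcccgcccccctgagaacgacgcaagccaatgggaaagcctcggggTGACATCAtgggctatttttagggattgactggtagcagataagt
Junb (chr8:84978749-84978998, minus strand): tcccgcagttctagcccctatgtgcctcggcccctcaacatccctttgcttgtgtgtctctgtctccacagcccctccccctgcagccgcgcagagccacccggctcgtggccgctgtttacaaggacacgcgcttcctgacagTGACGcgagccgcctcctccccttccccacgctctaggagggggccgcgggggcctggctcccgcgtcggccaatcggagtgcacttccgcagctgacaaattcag
Fosl2 (chr5:32136222-32136471, plus strand): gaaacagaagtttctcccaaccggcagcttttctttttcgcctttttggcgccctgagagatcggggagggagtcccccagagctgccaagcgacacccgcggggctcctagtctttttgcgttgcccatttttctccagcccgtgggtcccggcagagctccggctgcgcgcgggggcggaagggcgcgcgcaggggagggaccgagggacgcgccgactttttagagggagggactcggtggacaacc
Nr4a1 (chr15:101266596-101266845, plus strand): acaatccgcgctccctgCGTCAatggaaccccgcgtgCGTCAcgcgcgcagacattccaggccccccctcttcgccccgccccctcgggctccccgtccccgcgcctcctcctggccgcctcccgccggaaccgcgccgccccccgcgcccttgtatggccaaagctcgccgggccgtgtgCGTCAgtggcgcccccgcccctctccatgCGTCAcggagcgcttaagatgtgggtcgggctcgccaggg

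Fos held TGACG at 129 and 66 bases before the start and TATAAA at 33 bases. Nr4a1 held CGTCA at 4 places, 233, 213, 69 and 40 bases before the start. Junb held TGACG at 106 bases, and Jun held TGACATCA at 45 bases. Fosb, whose stretch was searched but is not shown, held TGACG at 60 bases. Among 32851 stretches of the same length in the same table, 17.8% held TGACG on either strand, 2.93% held TGACATCA and 12.4% held TATAAA on either strand. The full CRE TGACGTCA, which contains TGACG, was in 1.55% of them, the AP-1 site TGACTCA in 4.46% and a CArG box, the SRF site, in 1.47%. None of these last 3 was in the stretches of the 7 genes searched, which do not include Egr1. Fosl2 and Ier3 had no match to any of the letters searched. The matches are descriptions of sequence, and no match says only that these letters are not in this window.

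Across regions, the AP-1 genes Jun, Junb, Fosl1 and Fosl2 were higher in tumor and edge than in neural tissue, while the AP-1 genes Fos and Fosb were not called. Egr1 was higher in tumor, and Arc, the neuronal effector, was lower in tumor. In tumor against neural tissue, edgeR's quasi-likelihood test at an adjusted p of 0.05 called 5 genes higher (Jun, Junb, Fosl1, Fosl2 and Egr1) and 1 lower (Arc), 6 of 10 in all, where 37.2% of the 19080 genes tested were called, 19.6% higher and 17.6% lower. In edge against neural tissue, with inner and outer edge averaged, 4 of 10 were called, all higher (Jun, Junb, Fosl1 and Fosl2), where 20.6% of all genes were called and 9.15% were called higher. In tumor against edge, 1 of 10 was called, Fosl2, which was higher in tumor, where 15.4% of all genes were called and 7.37% were called higher. The median log2 fold change of the 10 genes was 1.56 in tumor against neural tissue, 1.34 in edge against neural tissue and -0.03 in tumor against edge, beside medians of -0.08, -0.05 and 0.07 over all genes tested. All 10 genes moved in the same direction in both sections at the edge against neural tissue, as did 74.5% of all genes. Both comparisons with neural tissue use the same neural libraries, so their values stand side by side and are not independent of each other. The 10 genes were chosen with earlier results of these data known, so these counts and medians are not an independent test of the list. Library size as the only scaling moved the median of all genes in tumor against neural tissue to -0.43 and the share of called genes that were higher from 52.7% to 31.5%, and in tumor against edge it moved them to -0.25 and from 47.8% to 13.3%.

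**Figure D1:**
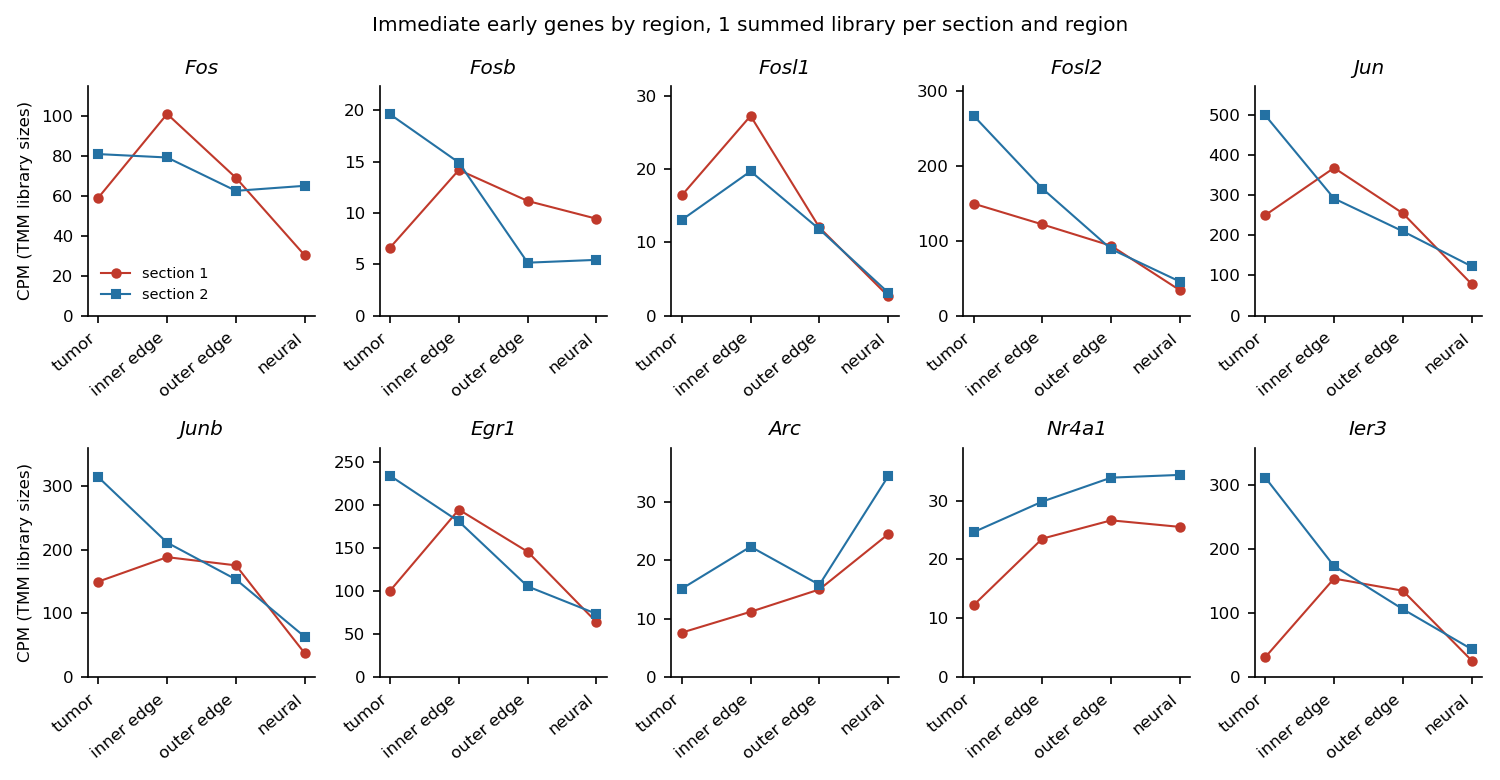
Levels of the 10 immediate early genes (CPM with TMM-scaled library sizes, linear axes from 0) in tumor, inner edge, outer edge and neural tissue, with 1 point per section and region and lines that only join the points of a section. Jun, Junb, Fosl1 and Fosl2 lie lowest in neural tissue in both sections, and Ier3 reaches 311.6 CPM in the tumor of section 2 and 31.0 CPM in that of section 1.

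Fos (chromosome 12, bases 85473890 to 85477274), the founding member of the Fos family and a common marker of neuronal firing, had its highest level of section 1 at the inner edge. In section 1, Fos was at 59.2 CPM in tumor, 101.2 CPM at the inner edge, 69.2 CPM at the outer edge and 30.2 CPM in neural tissue. In section 2, Fos was at 81.1 CPM, 79.3 CPM, 62.6 CPM and 65.1 CPM in the same order. The regions of section 1 thus spanned 3.35-fold and those of section 2 1.29-fold, and neural tissue of section 2 lay above that of section 1. Neither comparison with neural tissue was called for Fos, with log2 fold changes of 0.58 ± 0.35 (SE) in tumor and 0.75 ± 0.32 at the edge and adjusted p-values of 0.233 and 0.165.

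Fosb (chromosome 7, bases 19302696 to 19310118), whose protein and its truncated form outlast that of Fos, was a low gene with 206 UMIs in the neural tissue of section 1 and 166 in that of section 2. Its levels in section 1 were 6.62 CPM in tumor, 14.2 CPM at the inner edge, 11.2 CPM at the outer edge and 9.44 CPM in neural tissue. Those in section 2 were 19.6 CPM, 14.9 CPM, 5.16 CPM and 5.43 CPM. Tumor lay below neural tissue in section 1 and above it in section 2, with log2 differences of -0.48 and 1.76, and the fitted value of 0.82 ± 0.64 (SE) was not called (adjusted p = 0.337).

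Fosl1 (chromosome 19, bases 5447698 to 5455938), which encodes FRA-1, an AP-1 subunit of invasive epithelial cells and macrophages, was low in neural tissue, with 58 UMIs in section 1 and 96 in section 2. In section 1, Fosl1 was at 16.4 CPM in tumor, 27.3 CPM at the inner edge, 12.03 CPM at the outer edge and 2.66 CPM in neural tissue. In section 2, Fosl1 was at 13.1 CPM, 19.7 CPM, 11.8 CPM and 3.14 CPM in the same order. In both sections the inner edge was highest and neural tissue lowest, and the ranges of neural tissue and of each other region did not overlap. Fosl1 was 5.01-fold higher in tumor than in neural tissue (log2 fold change 2.33 ± 0.30, adjusted p = 0.0019) and 5.69-fold higher at the edge (2.51 ± 0.29, adjusted p = 0.00448).

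Fosl2 (chromosome 5, bases 32136472 to 32157840), which encodes FRA-2, an AP-1 subunit of bone, fibroblasts and epithelium, had its highest level in tumor in both sections. In section 1, Fosl2 was at 149 CPM in tumor, 122 CPM at the inner edge, 93.2 CPM at the outer edge and 33.8 CPM in neural tissue. In section 2, Fosl2 was at 267 CPM, 169.6 CPM, 88.8 CPM and 45.4 CPM. The order from tumor outward was the same in both sections. Fosl2 was 5.15-fold higher in tumor than in neural tissue (log2 fold change 2.36 ± 0.25, adjusted p = 9.51e-04) and 2.94-fold higher at the edge (1.55 ± 0.22, adjusted p = 0.00691). It was also the 1 gene called between tumor and edge, with a log2 fold change of 0.81 ± 0.20 (adjusted p = 0.0449), 0.49 within section 1 and 1.12 within section 2. That call did not hold under 7 of the 13 other settings, where the adjusted p ran from 0.0534 to 0.147 and the log2 value from 0.49 to 0.85.

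Jun (chromosome 4, bases 95049036 to 95052222), the founding member of its family and a target of its own protein and of JNK, was lowest in neural tissue in both sections. In section 1, Jun was at 250.1 CPM in tumor, 368 CPM at the inner edge, 255 CPM at the outer edge and 78.5 CPM in neural tissue. In section 2, Jun was at 499 CPM, 292 CPM, 209.9 CPM and 123 CPM. The highest region was the inner edge in section 1 and the tumor in section 2. Jun was 3.68-fold higher in tumor than in neural tissue (log2 fold change 1.88 ± 0.37, adjusted p = 0.00959) and 2.83-fold higher at the edge (1.50 ± 0.34, adjusted p = 0.027). With inner and outer edge summed to 1 library per section, the edge value was 1.57 with an adjusted p of 0.0612.

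Junb (chromosome 8, bases 84976909 to 84978748), which pairs with Fos proteins and is induced by cytokines through STAT3 as well as by growth factors, followed the same order as Jun in both sections. In section 1, Junb was at 150.1 CPM in tumor, 189 CPM at the inner edge, 176 CPM at the outer edge and 37.5 CPM in neural tissue. In section 2, Junb was at 314 CPM, 211 CPM, 154 CPM and 63.4 CPM. Every lesion and edge library of both sections lay above both neural libraries. Junb was 4.53-fold higher in tumor than in neural tissue (log2 fold change 2.18 ± 0.33, adjusted p = 0.00347) and 3.75-fold higher at the edge (1.91 ± 0.30, adjusted p = 0.00909).

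Egr1, a zinc finger factor induced through SRF and ETS-domain factors by MAPK signaling and by neuronal activity, was highest at the inner edge of section 1 and in the tumor of section 2. In section 1, Egr1 was at 100.3 CPM in tumor, 195 CPM at the inner edge, 146 CPM at the outer edge and 63.9 CPM in neural tissue. In section 2, Egr1 was at 234 CPM, 181 CPM, 105 CPM and 73.4 CPM. Every lesion and edge library lay above both neural libraries. Egr1 was 2.37-fold higher in tumor than in neural tissue, close to the threshold (log2 fold change 1.25 ± 0.39, adjusted p = 0.0492), and the edge was not called (1.18 ± 0.35, adjusted p = 0.0647). The tumor call did not hold with library size as the only scaling (0.90, adjusted p = 0.0982), with the lesion rule on single spots (1.19, adjusted p = 0.0502), with the edge summed (1.17, adjusted p = 0.0597) or without spots of choroid plexus (1.23, adjusted p = 0.0511). The edge was called higher with DESeq2 (1.24, adjusted p = 0.00871), with an edge of 1 step (1.22, adjusted p = 0.0326) and with the lesion rule on single spots (1.24, adjusted p = 0.0465).

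Nr4a1 (chromosome 15, bases 101253902 to 101274795), an orphan nuclear receptor induced in neurons and immune cells, was lowest in tumor in both sections. In section 1, Nr4a1 was at 12.2 CPM in tumor, 23.5 CPM at the inner edge, 26.6 CPM at the outer edge and 25.5 CPM in neural tissue. In section 2, Nr4a1 was at 24.6 CPM, 29.8 CPM, 33.9 CPM and 34.4 CPM. The tumor of section 2 lay within the range of the edge and neural libraries of section 1, so the regions overlapped across sections. Tumor against neural tissue had a log2 fold change of -0.75 ± 0.25 (SE, adjusted p = 0.056), and the edge differed from neural tissue by -0.07 ± 0.22 (adjusted p = 0.874). Under 5 other settings the tumor value was called lower, among them library size as the only scaling (-1.10, adjusted p = 0.0145).

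Arc (chromosome 15, bases 74669081 to 74672570), whose protein acts at excitatory synapses and is made after neuronal firing, was highest in neural tissue in both sections. In section 1, Arc was at 7.63 CPM in tumor, 11.2 CPM at the inner edge, 15.0 CPM at the outer edge and 24.5 CPM in neural tissue. In section 2, Arc was at 15.2 CPM, 22.4 CPM, 15.8 CPM and 34.4 CPM. Each neural library lay above every lesion and edge library of both sections. Arc was 2.68-fold lower in tumor than in neural tissue (log2 fold change -1.42 ± 0.30, adjusted p = 0.0117, and 0.0554 without the section as a replicate block), and the edge was not called (-0.88 ± 0.26, adjusted p = 0.058). Some other settings did call Arc lower at the edge, among them DESeq2 (-0.82, adjusted p = 0.0197) and the lesion rule on single spots (-0.90, adjusted p = 0.031). Neuronal transcripts as such were scarcer in the lesion, in part by the region rule, which set tumor spots by few neural marker UMIs. Nefl, a neural marker of that rule, is also among the 5 markers of other neurons. These 5 markers (neurofilaments among them) summed to 22.3 CPM and 71.8 CPM in tumor against 3370 CPM and 2570 CPM in neural tissue. That gap, partly built into the rule, was wider than that of Arc, and the part of these neurons in the Arc difference was not tested.

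Ier3 (chromosome 17, bases 35821713 to 35822911), a stress-response gene of NF-κB, p53 and hypoxia that modulates ERK signaling and cell survival, had the widest difference between sections of the 10 genes in tumor against neural tissue. In section 1, Ier3 was at 31.0 CPM in tumor, 154 CPM at the inner edge, 135 CPM at the outer edge and 25.9 CPM in neural tissue. In section 2, Ier3 was at 311.6 CPM, 173 CPM, 106 CPM and 43.6 CPM. Edge levels ran from 106 CPM to 173 CPM over both sections, and the tumor was at the level of neural tissue in section 1 and the highest region in section 2. The log2 difference of tumor and neural tissue was 0.25 within section 1 and 2.82 within section 2. Neither comparison with neural tissue was called, with fitted log2 values of 2.01 ± 0.85 (SE, adjusted p = 0.116) for tumor and 2.13 ± 0.77 (adjusted p = 0.113) for the edge, and DESeq2 called both (adjusted p = 0.0225 and 0.00590).

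**Figure D2:**
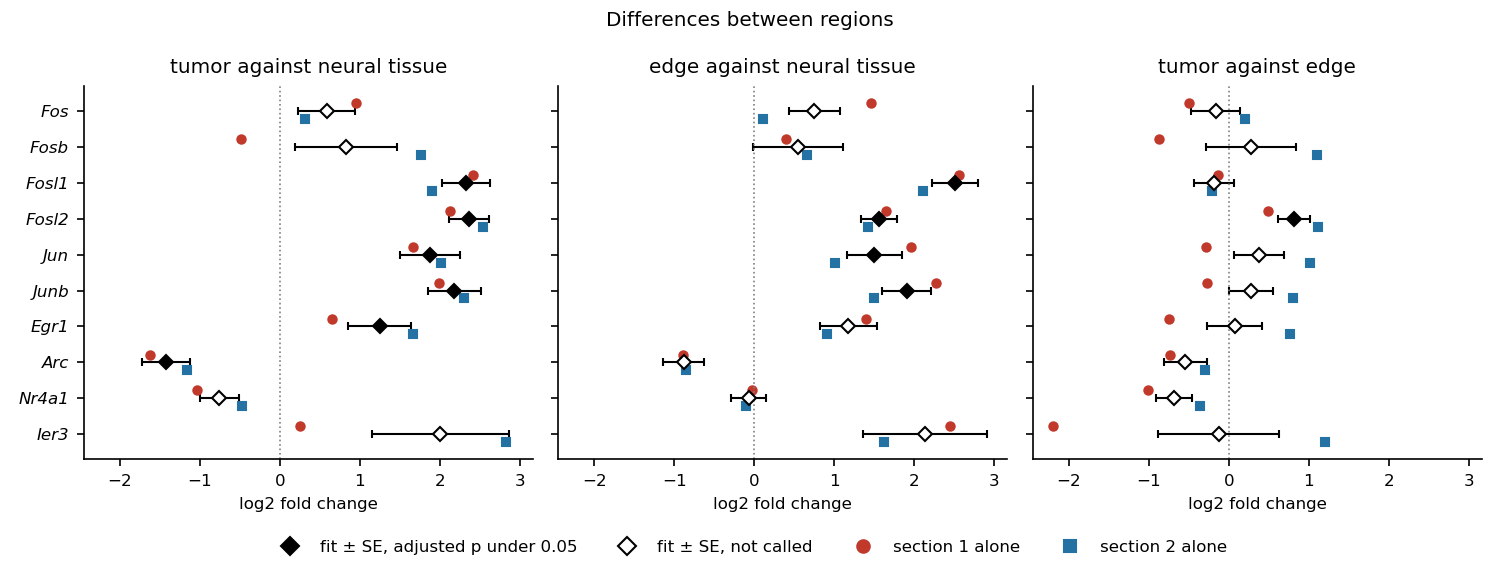
Log2 fold changes of the 10 genes in 3 comparisons between regions, as the edgeR fit over both sections with its SE (diamonds, filled where the adjusted p is under 0.05) and within each section alone (circles for section 1, squares for section 2, no test). Circles and squares lie on opposite sides of 0 for 6 of the 10 genes in tumor against edge, widest for Ier3 at -2.20 and 1.20.

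In tumor against edge the sections often went opposite ways. For Fos, Fosb, Jun, Junb, Egr1 and Ier3 the tumor lay below the edge in section 1 and above it in section 2, and 4 of 10 genes moved in the same direction in both, where 67.6% of all genes did. Within section 1 the log2 differences of these 6 genes ran from -2.20 for Ier3 to -0.28 for Junb, and within section 2 from 0.20 for Fos to 1.20 for Ier3. With 1 section of each kind this difference between sections was not tested. The matrix and epithelial markers of the tumors differed between the sections in the way described above, and the 6 macrophage markers summed to 1641 CPM in the tumor and 2200 CPM and 2065 CPM at the inner and outer edge of section 1, and to 518 CPM, 1524.5 CPM and 1119 CPM in section 2. The part of these cell types in the difference was not tested. Of the genes with the same direction in both sections, Nr4a1 was lower in tumor than at the edge by -1.01 and -0.36 on the log2 scale within the sections (adjusted p = 0.0883), and Arc by -0.73 and -0.30 (adjusted p = 0.207).

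Across the border itself, no gene was called between inner and outer edge at the adjusted threshold. Of the 19080 genes, 0 were called by edgeR (0%), 1898 had an unadjusted p under 0.05 (9.95%) and DESeq2 called 228. Of the 10 members, 9 moved in the same direction in both sections, where 64.1% of all genes did, 8 lower outside the border than inside and Nr4a1 higher. Fosl1 and Fosl2 had unadjusted p-values under 0.05, with log2 values of -0.97 ± 0.31 (SE, adjusted p = 0.416) and -0.64 ± 0.24 (adjusted p = 0.475).

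Levels by distance from the border showed where within the lesion the section difference lay. Distances are in steps of the array, negative inside the lesion. The border came from a threshold set within each section on the log2 ratio of lesion to neural marker UMIs. That threshold was 0.53 in section 1 and -1.23 in section 2. Lesion spots formed 1 connected group in section 1 and 2 in section 2. Each value is the CPM over all spots at that distance with library size as the scaling. These levels are therefore not on the TMM scale used above. In section 1, Ier3 was at 13.4 CPM at 10 steps inside, 35.0 CPM at 5 steps, 84.2 CPM at 3 steps and 187 CPM at 1 step, and outside at 174 CPM at 1 step, 55.7 CPM at 5 steps and 18.7 CPM at 10 steps. In section 2, Ier3 was at 302 CPM at 10 steps inside, 193 CPM at 5 steps, 179 CPM at 1 step, 128 CPM at 1 step outside, 72.5 CPM at 5 steps and 35.5 CPM at 10 steps. The gene thus formed a band along the border in section 1 and was higher toward the inside of the lesion in section 2. Fos and Egr1 also had their highest levels of section 1 within 2 steps of the border, where Fos reached 107 CPM against 52.3 CPM at 10 steps inside, and Egr1 reached 202 CPM at 2 steps inside against 77.5 CPM at 10 steps inside and 77.6 CPM at 10 steps outside. Between 11 and 12 steps outside, Egr1 was again at 130.4 CPM and 108 CPM in section 1, from 54 and 55 UMIs, while section 2 had 72.0 CPM and 48.7 CPM there. In section 2, Fos had its highest level at 44 steps outside, 156 CPM from 18 UMIs, and Egr1 at 12 steps inside, 230 CPM. These levels carry no test.

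**Figure D3:**
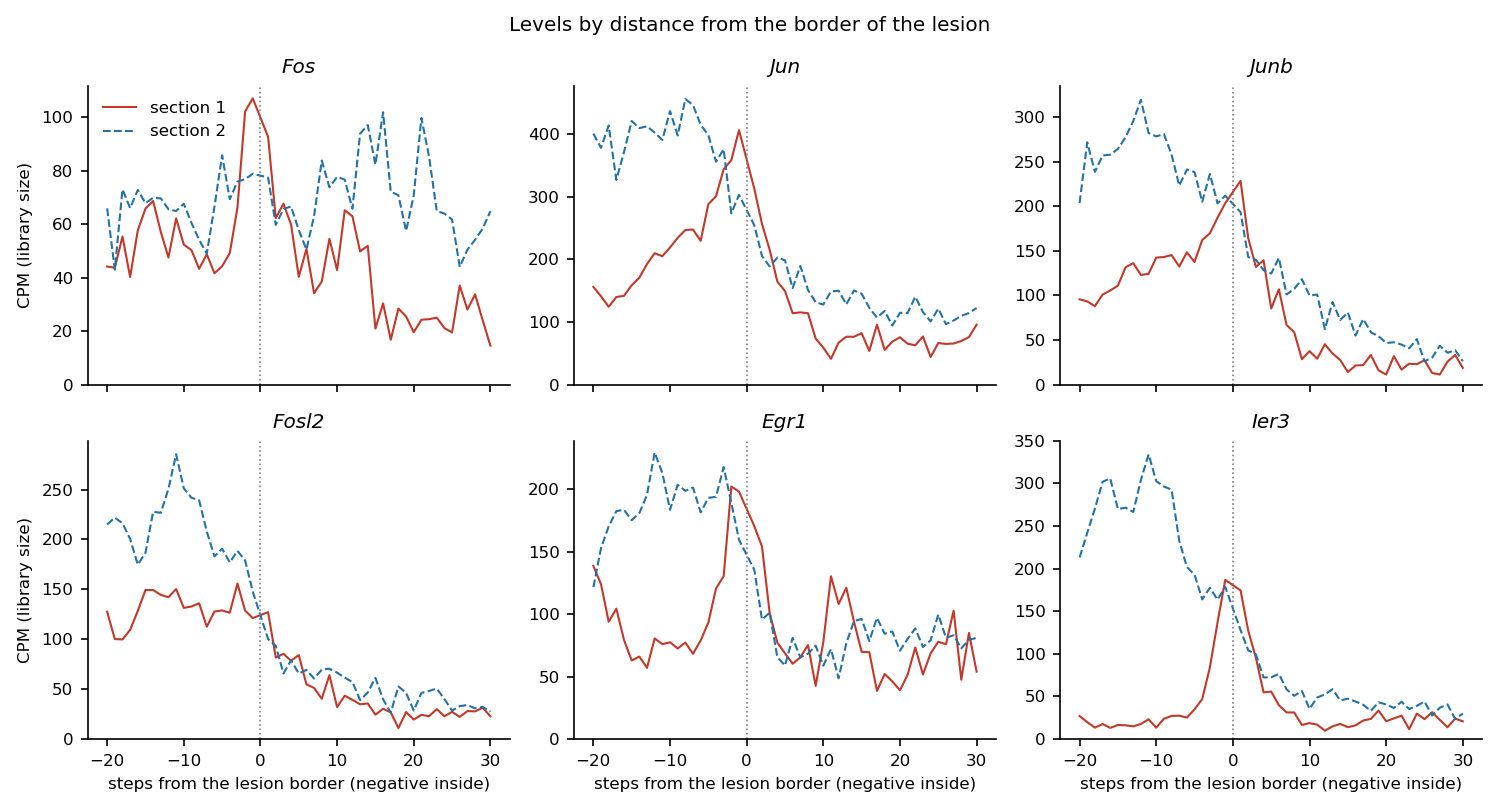
Levels of 6 immediate early genes (CPM with library size as the scaling, linear axes from 0) against the distance from the lesion border in array steps, with negative steps inside the lesion (solid line for section 1, dashed for section 2, at least 20 spots per step). In section 1, Ier3 has a narrow maximum of 187 CPM at 1 step inside, and in section 2 its highest level of 334 CPM is 11 steps inside.

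Jun and Junb had wider slopes. In section 1, Jun was at 219 CPM at 10 steps inside, 406 CPM at 1 step inside, 149 CPM at 5 steps outside and 58.9 CPM at 10 steps outside. In section 2, Jun was at 436 CPM, 303 CPM, 198 CPM and 128 CPM at the same distances. Junb of section 1 was at 142 CPM at 10 steps inside, had its highest level at 1 step outside (229 CPM) and was at 85.3 CPM, 37.5 CPM, 14.0 CPM and 11.2 CPM at 5, 10, 15 and 20 steps outside. Junb of section 2 was at 279 CPM at 10 steps inside, 194 CPM at 1 step outside and 125 CPM, 99.9 CPM, 80.9 CPM and 46.7 CPM at 5, 10, 15 and 20 steps outside. In both sections Junb was lower at 20 than at 10 steps outside, and in section 1 the level at 20 steps was the lowest of all distances. All neural tissue was at 41.7 CPM in section 1 and 65.3 CPM in section 2 on the same scale. Junb at 10 steps outside lay below that level in section 1 and above it in section 2. Fosl2 had its highest level 3 steps inside the border in section 1 (156 CPM) and 11 steps inside in section 2 (285 CPM), and was lowest far outside in both.

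**Figure D4:**
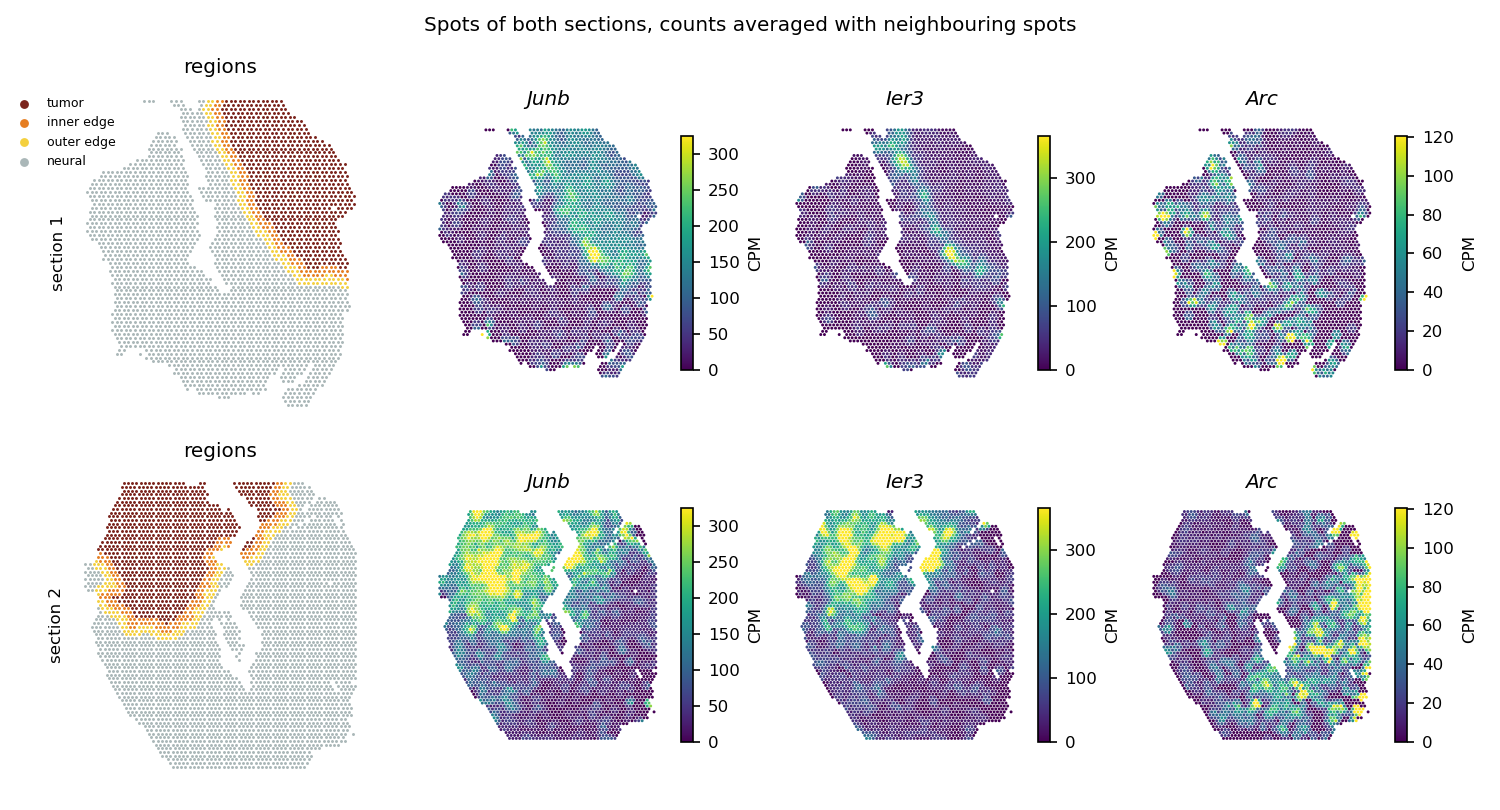
Spots of section 1 (top) and section 2 (bottom) in their array positions, colored by region (left) and by the CPM of Junb, Ier3 and Arc with each spot's counts averaged with its neighbors (the brightest color holds the top 2% of spots). Ier3 forms a band along the lesion border in section 1 and fills the lesion in section 2, and Arc is highest in neural tissue away from the lesion in both.

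The share of spots with a UMI depended on depth, and for Arc it ran opposite to the level. Without correction for depth, 26.4% of tumor spots and 19.0% of neural spots of section 1 held an Arc UMI, and 36.7% and 28.2% did in section 2. After each spot was thinned to 5000 UMIs, with 9 tumor spots per section and 658 and 352 neural spots left out as shallower, the shares were 2.84% and 12.5% in section 1 and 6.73% and 15.1% in section 2. For Jun the thinned shares of tumor, inner edge, outer edge and neural spots were 64.1%, 78.4%, 65.3% and 32.0% in section 1 and 84.1%, 76.8%, 65.7% and 40.4% in section 2, in the same order as its CPM, and the shares before thinning were 98.0% and 99.3% in tumor and 42.6% and 59.7% in neural tissue. Ier3 had thinned shares of 13.4% in the tumor and 55.2% at the inner edge of section 1 and of 66.9% and 43.6% in section 2, so the opposite order of the sections was also present at equal depth.

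Within neural tissue, spots were assigned to the layer whose markers were highest: granule layer (411 spots in section 1 and 510 in section 2), Purkinje and molecular layer (451 and 570), white matter (689 and 713) and, for the rest, other neurons, marked by neurofilaments and Slc17a6. Few immediate early genes were called between these layers. Nr4a1, 1 of 10 members, was called higher in the granule layer than in the mean of the other layers, where 21.1% of 18737 genes were called higher, and Arc, 1 of 10 in each case, was called lower in the Purkinje and molecular layer (5.79% of all genes called lower) and higher in other neurons (19.4% called higher). In white matter 0 of 10 members were called by edgeR, where 7.24% of all genes were called, and 1 of 10, Arc, had an unadjusted p under 0.05 there, where 19.4% of all genes did, with an adjusted p of 0.205 in edgeR's quasi-likelihood test.

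Nr4a1 in section 1 was at 32.5 CPM in the granule layer, 31.2 CPM in the Purkinje and molecular layer, 26.3 CPM in white matter and 24.9 CPM in other neurons. In section 2, Nr4a1 was at 50.9 CPM, 29.7 CPM, 35.6 CPM and 30.4 CPM. The granule layer was highest in both sections. The log2 difference of the granule layer was 0.48 ± 0.17 (adjusted p = 0.0307), which did not stay called with DESeq2 (0.37, adjusted p = 0.181) or without the section as a replicate block (0.50, adjusted p = 0.118). Egr1 had the granule layer highest in both sections as well, at 79.8 CPM and 100.4 CPM against 64.0 CPM to 85.6 CPM in the other layers apart from 51.5 CPM in the Purkinje and molecular layer of section 2, and its log2 difference of 0.40 ± 0.16 was not called (adjusted p = 0.0576).

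Arc in section 1 was at 19.4 CPM in the granule layer, 17.8 CPM in the Purkinje and molecular layer, 25.6 CPM in white matter and 38.4 CPM in other neurons. In section 2, Arc was at 30.1 CPM, 10.9 CPM, 52.5 CPM and 54.7 CPM. The Purkinje and molecular layer was lowest and other neurons highest in both sections. The log2 differences from the other layers were -1.32 ± 0.29 in the Purkinje and molecular layer (adjusted p = 0.0123) and 0.97 ± 0.23 in other neurons (adjusted p = 0.00893). With library size as the only scaling neither was called (-1.21, adjusted p = 0.131, and 0.68, adjusted p = 0.124), and without the replicate block the first was not (-1.34, adjusted p = 0.0502). Choroid plexus markers, which no layer was defined by, summed to 1897 CPM and 10327 CPM in the spots of the Purkinje and molecular layer. In the granule layer they summed to 1036 CPM and 5613 CPM, against 283 CPM and 774 CPM in white matter and 111 CPM and 845 CPM in other neurons. Their part in the layer differences, of Arc as of Nr4a1 and the other genes of the granule layer, was not tested. Library size as the only scaling moved the share of called genes that were higher from 58.0% to 79.6% in the granule layer, from 43.4% to 58.3% in the Purkinje and molecular layer, from 62.3% to 44.3% in white matter and from 55.0% to 26.3% in other neurons.

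**Figure D5:**
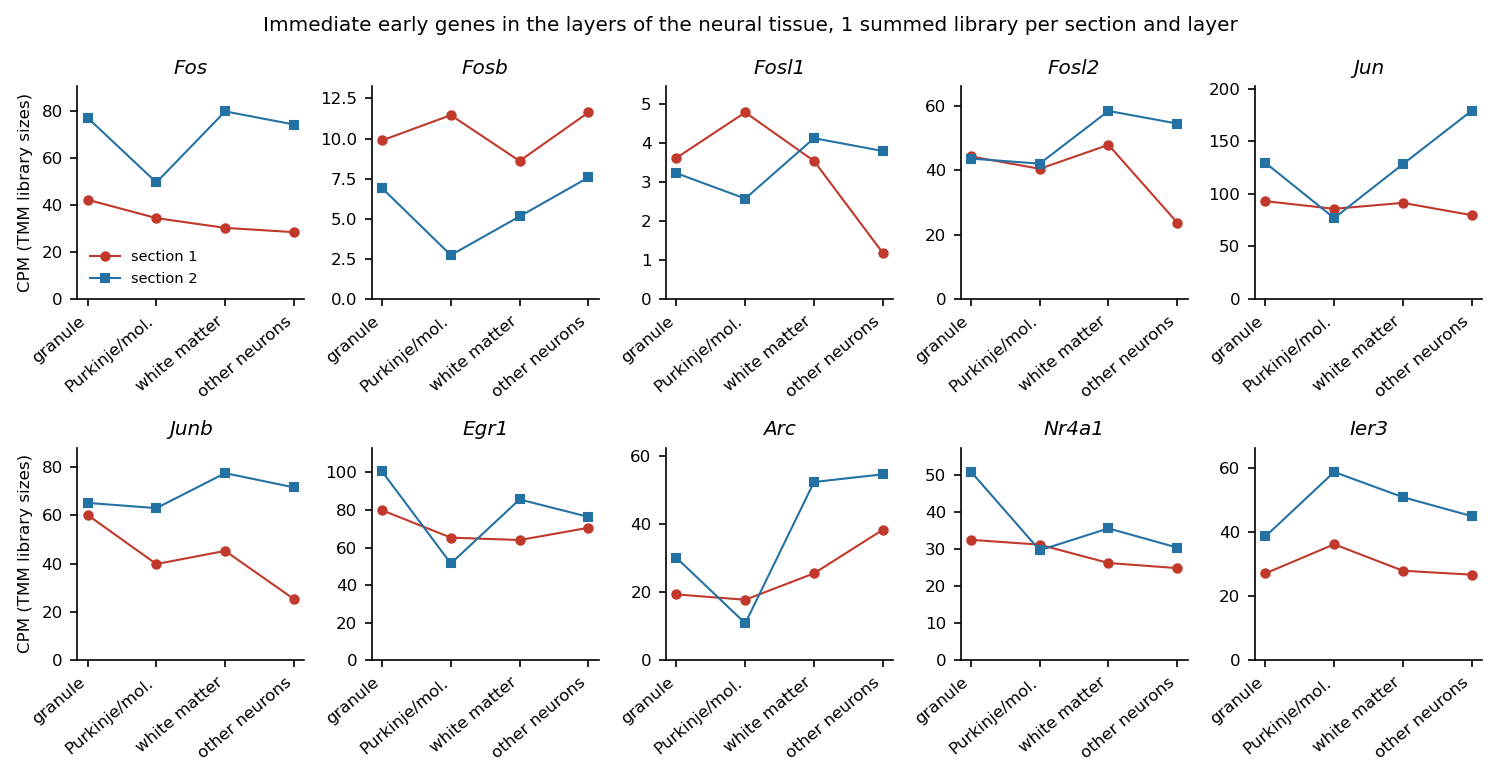
Levels of the 10 immediate early genes (CPM with TMM-scaled library sizes, linear axes from 0) in the 4 layers of neural tissue, with 1 point per section and layer and lines that only join the points of a section. Arc is lowest in the Purkinje and molecular layer (17.8 CPM and 10.9 CPM), and Nr4a1 is highest in the granule layer (32.5 CPM and 50.9 CPM).

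Genes of the same pathway were followed in 6 lists, chosen with earlier results of these data known. Their counts stand beside 19.6% of all genes called higher and 17.6% called lower in tumor than in neural tissue, and 9.15% called higher at the edge. Of 8 measured AP-1 partners, 1 was called higher in tumor, a share below that of all genes. At the edge 3 were, with none lower in either comparison. These were the leucine zipper factors Batf3 (log2 fold change 1.44 ± 0.35 in tumor and 1.22 ± 0.32 at the edge), Batf (1.55 ± 0.34 at the edge) and the stress factor Atf3 (2.26 ± 0.59 at the edge, adjusted p = 0.0448). In section 1, Atf3 was at 30.1 CPM in tumor, 138 CPM at the inner edge, 108 CPM at the outer edge and 13.5 CPM in neural tissue. In section 2 it was at 97.2 CPM, 128 CPM, 64.5 CPM and 36.8 CPM. Atf3 thus had its highest level at the inner edge in both sections. The list's median log2 fold change was 1.11 in tumor and 0.85 at the edge, beside -0.08 and -0.05 over all genes. Jund, the Jun family member that is present without a stimulus in most cells, was not called. Its log2 fold changes were 0.86 ± 0.46 in tumor (adjusted p = 0.187, -0.12 within section 1 and 1.61 within section 2) and -0.0031 ± 0.39 at the edge (adjusted p = 0.999).

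Of 22 other immediate early and primary response genes, 9 were called higher and 1 lower in tumor than in neural tissue, where 19.6% of all genes were called higher and 17.6% lower. At the edge 12 were called higher and none lower, where 9.15% of all genes were called higher. The list medians were 1.05 and 1.02. Myc, the growth regulator, had log2 fold changes of 3.27 ± 0.49 in tumor (adjusted p = 0.00369) and 2.20 ± 0.43 at the edge (adjusted p = 0.0188). Its tumor value was 2.38 within section 1 and 3.88 within section 2. Ccn1, a matricellular protein induced by growth factors and by YAP, had 2.98 ± 0.50 and 2.37 ± 0.45. Klf10, a TGF-β-induced factor, had 2.68 ± 0.40 and 2.03 ± 0.36. Ptgs2, the inducible cyclooxygenase, had 2.13 ± 0.47 in tumor and 2.66 ± 0.45 at the edge, with 31.4 CPM and 70.3 CPM at the inner edge of the sections against 4.72 CPM and 5.89 CPM in neural tissue. The gene called lower in tumor was Egr4, at 1.18 CPM and 1.41 CPM in tumor against 3.48 CPM and 3.30 CPM in neural tissue. In the granule layer 6 of the 22 were called higher, where 21.1% of all genes were, and 2 lower (Klf2 at -0.71 ± 0.17, and Sgk1), where 15.3% were. Among the higher, Nr4a2 and Nr4a3, the relatives of Nr4a1, had log2 differences of 1.22 ± 0.20 (adjusted p = 3.42e-04) and 1.06 ± 0.19 (adjusted p = 5.19e-04), and Egr4 had one of 1.37 ± 0.32 (adjusted p = 0.00377).

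Feedback genes of the ERK pathway, which ERK signaling itself induces, were called higher in tumor than in neural tissue for 7 of 12. None was called lower, where 19.6% of all genes were called higher and 17.6% lower, and the list median was 0.95. At the edge 1 of 12 was called, where 20.6% of all genes were called and 9.15% were called higher. The list median there was 0.40. Dusp6, the ERK phosphatase, was at 204 CPM and 516 CPM in the tumors of the sections against 49.2 CPM and 57.6 CPM in neural tissue, a log2 fold change of 2.68 ± 0.42 (adjusted p = 0.00418), and at the edge of 1.83 ± 0.37 (adjusted p = 0.0201). Spry1, an inhibitor of receptor tyrosine kinase signaling, had 2.35 ± 0.31 in tumor. It was the 1 of 12 feedback genes called between tumor and edge, at 1.58 ± 0.25 (adjusted p = 0.0111). In that comparison 15.4% of all genes were called and 7.37% were called higher in tumor. Of 16 upstream kinases and factors, 6 were called higher and 2 lower in tumor, where 19.6% and 17.6% of all genes were, with a median of 0.42. The ETS-domain partners of SRF Elk3 and Elk4 had 3.29 ± 0.23 and 1.36 ± 0.17, SRF itself, encoded by Srf, had 1.32 ± 0.26, and Braf, a kinase of the ERK cascade abundant in neurons, had -2.20 ± 0.26 (adjusted p = 0.00146).

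Known AP-1 targets, mostly of matrix breakdown, were called higher in tumor for 8 of 9 and at the edge for 7 of 9, with list medians of 3.24 and 2.92. The list was chosen with earlier results of these data known. The study had reported Mmp3 as higher in its tumor clusters, and Mmp13 and Hmox1 in its invasion clusters. These counts are therefore not an independent test of the list. Plau, the urokinase, was at 134 CPM and 175 CPM in tumor, 183 CPM and 136 CPM at the inner edge and 8.52 CPM and 9.13 CPM in neural tissue, with log2 fold changes of 4.14 ± 0.45 in tumor and 3.50 ± 0.42 at the edge. Timp1, the metalloproteinase inhibitor, was called lower in tumor than at the edge (-1.08 ± 0.22, adjusted p = 0.0263). The metalloproteinases Mmp3, Mmp13 and Mmp9, all called higher in tumor, had far higher tumor levels in section 1. They were at 853 CPM, 481 CPM and 349 CPM there and at 23.2 CPM, 13.4 CPM and 42.96 CPM in section 2. Against neural tissue, Cd44, Plaur, Ccnd1 and Plau had the larger log2 fold change within section 2, and Timp1 within section 1. Macrophages and fibroblasts also make these genes. The 5 fibroblast markers summed to 43676 CPM and 405 CPM in the tumors against 517 CPM and 131 CPM in neural tissue. All of them but Pdgfra are also matrix markers of the region rule, so part of that gap was set by the rule. The macrophage markers are given above, with 318 CPM and 374 CPM in neural tissue. The part of fibroblasts and macrophages in these differences was not tested. Of 12 neuronal activity genes, 2 were called higher and 4 lower in tumor, where 19.6% and 17.6% of all genes were. The list median was -0.61. Those higher were Nab2 (1.53 ± 0.22) and Plk2 (1.42 ± 0.30), each higher in both sections. Those lower were Pcsk1 (-5.74 ± 0.36), Vgf (-3.91 ± 0.25), Scg2 (-3.06 ± 0.38) and Npas4 (-1.65 ± 0.30), all induced in neurons like Arc, and Npas4 was low throughout, at 3.25 CPM and 3.11 CPM in neural tissue.

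Genes whose pattern over spots was most like that of an immediate early gene were listed by the lower of the Pearson correlations of the sections, over depth-corrected counts of 11978 genes, for Fos, Junb, Egr1 and Jun in each region. All genes of a spot share its depth and its mixture of cells, and most values were weak. In neural tissue (2328 and 2717 spots), Junb went with Serpina3n (0.41), Cebpd (0.40) and Lcn2 (0.38), genes of the acute-phase and reactive astrocyte response, and Jun with Lcn2 (0.26), Serpina3n (0.25) and Spp1 (0.23). Fos went there with Serpina3n (0.15), Vim (0.15) and Mt2 (0.15), and Egr1 with Zic1 (0.16), Fos (0.12) and Slc17a7 (0.12). At the edge (238 and 375 spots), Egr1 went with Ccn1 (0.40), Tm4sf1 (0.33) and Hbegf (0.28), Fos with Vegfa (0.29), Ier3 (0.27) and Hilpda (0.27), Junb with Ier3 (0.28), Cebpb (0.22) and Itgb4 (0.22), and Jun with Ifit1 (0.25), Atf3 (0.25) and Ccn1 (0.25). In tumor (749 and 901 spots) Fos had no value above 0.12, Egr1 none above 0.17, Jun reached 0.30 with Myl12a and Junb 0.26 with Bhlhe40. Ier3, listed after its values were seen, went with Adm (0.45), Vegfa (0.41) and Hbegf (0.40) at the edge and with Vegfa (0.40) in tumor. Pairs of the members themselves reached 0.28 at the edge (Junb and Ier3), 0.15 in neural tissue and 0.13 in tumor.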

How the data were processed

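Visium CytAssist libraries of 2 sections, 1 per mouse, were analyzed. The authors detected tissue and counted UMIs with Space Ranger 2.1.1 on mm10 (submitters' processing notes), and what they deposited are whole-number UMI counts for each gene in each spot, not normalized. The authors' clusters were not used here. Spots with under 500 UMIs or 10 genes were left out (91 and 18, and 6 more in small groups). The lesion was every connected group of at least 30 spots above Otsu's threshold on the log2 ratio of 13 lesion to 17 neural marker UMIs summed over neighbors, and edges were 2 steps wide. Summed counts of 8 libraries (2091136 to 39638061 UMIs) were fitted with edgeR 4.0.16 (filterByExpr, TMM factors of 0.814 to 1.11, glmQLFit, glmQLFTest) in R 4.3.3, with section as a block, 3 residual degrees of freedom and Benjamini-Hochberg adjustment over all genes. The block stands for the shared animal. Deviations of regions of 1 section correlated at 0.349 to 0.621, and edgeR's common dispersion of 0.136 became 0.0791 once the block was added. All regions of a section share 1 mouse, so p-values rest on 2 animals. The number of sections limits precision, and Poisson counting error covers counting alone. Fits were tested on simulated data, with 50 genes changed per size and direction and no section effect. In the simulated comparison of tumor with neural tissue (13 of 18797 unchanged genes called) 76% of genes set 2 log2 units higher, 52% of those set 2 lower, and 4% and 2% of those set 1 higher or lower were called, and in that of the granule layer 100%, 94%, 94% and 68% of the same sets. Layers of neural tissue were fitted in the same way (18737 genes). Python 3.11.15 with numpy 2.4.6, scipy 1.17.1, pandas 2.3.3 and matplotlib 3.10.9 was used for regions, distances, likeness and plots. Named genes were the 10 members, up to 4 called genes of the same direction in both sections per list and comparison, Egr4 and other exceptions beside a count, and the 3 most alike genes of Fos, Junb, Egr1 and the member with the highest CPM. The members and gene lists were chosen with earlier results of these data known. Not measured here were Mafg, Zfp36l1, Rhob, Rps6ka1 and Rps6ka3 of the gene lists, and Hba-a1 and Ccnb1 of the marker lists. Promoter stretches came from RefSeq.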

Additional observations from a re-analysis of the deposited data

How the results depend on the processing

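With 2 sections the fits have 3 residual degrees of freedom, and a missed threshold does not show that regions are alike. In simulation, differences of 1 log2 unit between tumor and neural tissue were rarely recovered, though more often in the granule layer. Each simulation changed only 50 genes per size and direction and drew no section effect. In the data 7106 genes were called in tumor against neural tissue, so the adjusted threshold allowed larger p-values there. The simulated shares are therefore not the recovery of the real test. Tissue regions came from marker rules and not from histology. Jun, Junb, Fosl1 and Fosl2 stayed called higher in tumor than in neural tissue under all 13 other settings. At the edge, Junb, Fosl1 and Fosl2 did so too, and Jun in all but the summed edge. Leaving out a section gives the values within the other section, with no test, and counts were not computed. Settings without the layer of other neurons and without choroid plexus spots were chosen after seeing the data.

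Without the section as a replicate block, the genes called numbered 1595 in tumor against edge (2941 with it), 2279 in the granule layer (6820), 917 in the Purkinje and molecular layer (1915), 424 in white matter (1356) and 3018 in other neurons (6595), and members called were 0 in tumor against edge, 0 in the granule layer and 0 in the Purkinje and molecular layer. The block changed no other count of members called by over 1.5 times. With the edge summed, 1188 genes were called in edge against neural tissue (3936 in the main setting) and 824 in tumor against edge, with 0 members. DESeq2 called 4429 genes in tumor against edge with 2 members, 228 between outer and inner edge, 4487 in the granule layer with 0 members, and 7 members in edge against neural tissue. Members called in tumor against edge were 0 with an edge of 1 step, an edge of 3 steps, the lesion rule on single spots and neural tissue beyond 5 steps. Beyond 5 steps, 2 members each were called in the granule layer, the Purkinje and molecular layer and other neurons, and library size as the only scaling gave 2 members in the granule layer and 2 in other neurons.

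Values that changed sign were not called in either setting, and the cause was not tested. In tumor against edge, library size as the only scaling gave log2 values of -0.045 for Fosb, -0.042 for Junb and -0.25 for Egr1. Egr1 was at -0.077 with an edge of 1 step, -0.048 with the rule on single spots and -0.079 with the edge summed, Fosl1 at 0.064 and 0.082 with edges of 1 and 3 steps, and Ier3 at 0.29 without the replicate block. Arc between outer and inner edge was 0.081 with library size as the only scaling. In the granule layer, DESeq2 gave -0.021 for Fosl1, -0.067 for Fosl2 and -0.0094 for Jun, tissue beyond 5 steps -0.11 for Fosl1 and -0.027 for Jun, and no replicate block -0.0070 for Fosl2. In the Purkinje and molecular layer, Nr4a1 was 0.011 with library size as the only scaling. In white matter, tissue beyond 5 steps gave -0.055 for Fos, -0.0032 for Jun, -0.016 for Junb, -0.012 for Egr1 and -0.027 for Ier3, and library size as the only scaling -0.017 for Egr1 and -0.025 for Ier3. In other neurons, Egr1 was -0.29 when library size alone set the scale and Ier3 0.085 beyond 5 steps.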
